A study of Mus musculus with 7 samples.

Results

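Gata1, Klf1, Epor, Ank1, Nfe2, Zfpm1, Gp1bb and Pf4, a set of regulators and products of the red cell and platelet lineages, were examined by name in the nascent RNA of intra-aortic hematopoietic cluster (IAHC) cells. All 8 were found by symbol among the 55487 genes of the count table, and the set is a list of names with no threshold on the values. Of these, 5 were among the 10311 genes that reached 10 counts in at least 2 libraries of a condition, the filter that the study set before testing. Zfpm1, Gp1bb and Pf4 did not pass it, and Klf1 passed through the compE group alone.

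The cells were CD31+cKIT+GFI1+ IAHC from the aorta-gonad-mesonephros (AGM) region of E11.5 mouse embryos, sorted with the Gfi1:tomato reporter on the background labelled CD1/Gf1+. All sets of 300 to 400 cells spent the night in compE, which blocks γ-secretase and so the release of the active part of Notch receptors, and were then washed. They were cultured for 4 h in methylcellulose with growth factors and with DMSO (washout, 3 libraries), compE (2 libraries) or Fc-JAG1, a recombinant form of the Notch ligand JAG1 (2 libraries), so that the washout is itself a recovery from the inhibitor and not an untreated state. EU, a uridine analog, was present at 0.3 mM to tag the RNA made in these hours, which was captured, pre-amplified and sequenced. The labels give compE as 10 mM and Fc-JAG1 as 4 mg/ml, while the methods give μM and μg/ml. A number after a group name marks the biological sample that the cells came from (an embryo by the labels, pooled embryos by the methods). Samples 1 and 2 have a washout and a compE library, samples 1 and 3 a washout and a Fc-JAG1 library. Fc-JAG1 2 was not analysed here.

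GATA1 is a zinc finger transcription factor that erythroid cells and megakaryocytes both need to mature, and it acts with the cofactor FOG1, the product of Zfpm1. KLF1 binds CACCC elements of globin and other red cell genes, and NFE2 is the large subunit of a factor that pairs with small MAF proteins and is needed for platelet release. EPOR passes the erythropoietin signal to JAK2 and STAT5. Ankyrin 1, from Ank1, ties the spectrin skeleton to the red cell membrane. GPIbβ, from Gp1bb, is a chain of the platelet receptor for von Willebrand factor, and platelet factor 4, from Pf4, is a chemokine stored in alpha granules. These genes belong to the erythroid and megakaryocytic lineages, and Gata1 and Pf4 can also be read in multipotent progenitors.

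In GRCm38, Gata1 lies at chrX:7959260-7978071 on the minus strand and Klf1 at chr8:84901928-84905291 on the plus strand. Epor lies at chr9:21958897-21963506 (minus), Ank1 at chr8:22974844-23150497 (plus), Nfe2 at chr15:103248212-103258403 (minus) and Zfpm1 at chr8:122282141-122337251 (plus). Gp1bb lies at chr16:18620317-18622403 (minus) and Pf4 at chr5:90772435-90773383 (plus). The promoters of 4 of these genes are shown because Klf1, Epor and Pf4 were highest in the same 3 libraries and Gata1 was not. Ank1 and Gp1bb were highest in these libraries too. No promoter was available for Ank1 and Nfe2, and for Gp1bb only the matches are given below. Each is the RefSeq stretch from 250 bases before to 50 after the annotated start in GRCm38.p6, written 5′ to 3′ on the gene's own strand. Capitals mark 2 motifs searched on both strands, a GATA motif (TGATAA or TGATAG, or either with A in place of its first T) and a KLF motif (CCNCNCCC). The windows are chrX:7967861-7968160 (Gata1, minus, inside the gene span given above), chr8:84901732-84902031 (Klf1, plus), chr9:21963527-21963826 (Epor, minus) and chr5:90772185-90772484 (Pf4, plus).
Gata1: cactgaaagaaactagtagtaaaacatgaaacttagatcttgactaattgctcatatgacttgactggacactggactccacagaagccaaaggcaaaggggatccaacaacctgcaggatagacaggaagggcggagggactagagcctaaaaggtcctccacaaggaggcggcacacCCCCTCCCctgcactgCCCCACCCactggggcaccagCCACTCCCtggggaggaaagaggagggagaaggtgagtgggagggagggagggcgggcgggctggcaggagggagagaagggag
Klf1: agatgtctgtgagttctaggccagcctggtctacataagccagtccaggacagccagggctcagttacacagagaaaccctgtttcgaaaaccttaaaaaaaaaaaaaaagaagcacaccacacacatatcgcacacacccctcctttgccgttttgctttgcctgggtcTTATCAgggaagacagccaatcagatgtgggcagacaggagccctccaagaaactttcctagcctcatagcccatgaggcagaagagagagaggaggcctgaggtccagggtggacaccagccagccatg
Epor: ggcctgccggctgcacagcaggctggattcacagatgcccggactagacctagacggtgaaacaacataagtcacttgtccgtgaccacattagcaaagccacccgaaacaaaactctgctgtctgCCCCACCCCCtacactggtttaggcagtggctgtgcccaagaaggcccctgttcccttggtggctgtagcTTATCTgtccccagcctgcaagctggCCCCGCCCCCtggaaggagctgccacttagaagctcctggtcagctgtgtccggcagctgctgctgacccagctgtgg
Pf4: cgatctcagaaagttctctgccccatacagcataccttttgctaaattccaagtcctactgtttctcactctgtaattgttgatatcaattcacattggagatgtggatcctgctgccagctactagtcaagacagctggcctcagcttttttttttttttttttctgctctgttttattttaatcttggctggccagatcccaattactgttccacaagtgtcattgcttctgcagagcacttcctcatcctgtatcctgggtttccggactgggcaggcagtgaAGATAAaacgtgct

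A GATA match began 80 bases before the start of Klf1 and 54 before that of Epor, and in Pf4 it began 36 bases after the start. The Gata1 window held no GATA match and 3 KLF matches, which began 71, 55 and 34 bases before the start. Epor held 4 KLF matches as 2 overlapping pairs (from 124 and 122, and from 28 and 26 bases before the start), and no GATA match overlapped a KLF match. Of the 6 members found in the promoter table, Zfpm1 had 4 KLF and 0 GATA matches, and Gp1bb had 4 KLF matches and 1 GATA match. Among all 32851 promoters of this length, 29.8% held the GATA motif and 49.5% the KLF motif, so each match is common and is a description of the letters.

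Total counts ran from 21652927 to 33974693 per library, while the number of genes with 10 or more counts ran from 6265 in washout 1 to 12351 in washout 2. Washout 2, compE 2 and Fc-JAG1 1 stood apart from the rest in this number, with 10 or more counts in 90.5% to 94.2% of the genes tested against 56.2% to 71.1% in the remaining 4 libraries. The counts carry no molecular identifiers, so a high count can come from few captured molecules. Of the sort markers, Kit had 6381 to 19331 counts in every library, whereas Pecam1 (CD31) had 18 counts in washout 1 and 11 in Fc-JAG1 3, and Gfi1 reached 10 counts in 3 libraries only. Markers of other cells were summed beside these: the 8 mesenchyme genes totalled 0.158 to 17.7 CPM (counts scaled to a common library size with TMM factors), the 8 endothelial genes 0.677 to 231 CPM, the 11 macrophage genes 103 to 524 CPM, and the 8 granulocyte and mast cell genes 601 to 2760 CPM. The last sum was highest in washout 3, the library highest in Gata1 and Nfe2, with 30889 counts of Prg2 and 15293 of Epx. The other genes of that list were highest in other libraries, among them Cpa3 in washout 1 (19289 counts) and Mpo in Fc-JAG1 3 (20065). The part of this sum in the results was not tested.

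Among the transcription factors, Nfe2 was the steadiest, Gata1 was read in every library over a very wide range, and Klf1 was read in some libraries and nearly missing from others. Nfe2 had 232, 9805 and 19260 counts in the washout (libraries 1, 2 and 3), 4291 and 7116 with compE (1 and 2), and 4853 and 8484 with Fc-JAG1 (1 and 3). Washout 1 was the lowest and washout 3 the highest of all, so the washout range enclosed both treated groups. In CPM, Nfe2 averaged 324 ± 339 (SD, n = 3) in the washout, 177 ± 9.88 (n = 2) with compE and 246 ± 160 (n = 2) with Fc-JAG1.

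Gata1 had 14, 2067 and 8789 counts in the washout libraries, 883 and 5520 with compE, and 3667 and 1 with Fc-JAG1. Its highest value was again in washout 3, and its lowest was in Fc-JAG1 3, the library of the same biological sample. The groups overlapped throughout, at 124 ± 166 CPM (SD, n = 3) in the washout, 88.7 ± 76.0 CPM (n = 2) with compE and 50.3 ± 71.1 CPM (n = 2) with Fc-JAG1.

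Klf1 had 1, 1065 and 0 counts in the washout, 19 and 1399 with compE, and 1816 and 0 with Fc-JAG1. Each condition thus had a library with 1065 counts or more and another with 19 or fewer, and the groups overlapped. The mean was 9.86 ± 17.0 CPM (SD, n = 3) in the washout, 18.4 ± 25.0 CPM (n = 2) with compE and 24.9 ± 35.2 CPM (n = 2) with Fc-JAG1. Where Klf1 had 0 counts, in washout 3 and Fc-JAG1 3, a floor of 3 counts allows up to 0.107 and 0.127 CPM, a limit that covers counting error only.

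Zfpm1, which encodes the GATA1 cofactor FOG1, had 0 counts in all 7 libraries, and this cannot be read as an absence of transcription. The whole of Zfpm1 lies inside Gm20388, a gene model of 4434882 bp on the same strand (chr8:119910841-124345722), which had 2266 to 15329 counts per library. The study counted reads over whole genes. In this table, 8862 of 11898 protein-coding genes that no other gene overlaps had a count (74.5%), against 2 of 454 (0.441%) whose span was wholly covered by genes of the same strand and 1 of 703 (0.142%) covered on the opposite strand only. None of the 36 protein-coding genes inside Gm20388 on its strand had a count, Zfpm1 among them.

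Epor and Ank1, a receptor and a membrane skeleton gene of red cells, were the members that exceeded the washout of the same biological sample in both Fc-JAG1 libraries. Epor had 0, 2148 and 0 counts in the washout, 29 and 759 with compE, and 1223 and 329 with Fc-JAG1. Washout 2 held the highest value of all 7 libraries, so the Fc-JAG1 and washout groups overlapped although the other 2 washout libraries were at 0. In CPM, Epor averaged 19.8 ± 34.4 (SD, n = 3) in the washout, 10.4 ± 13.0 (n = 2) with compE and 23.8 ± 13.9 (n = 2) with Fc-JAG1.

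Ank1 had 3, 377 and 6 counts in the washout, 56 and 1070 with compE, and 672 and 45 with Fc-JAG1. It was lowest in washout 1 and 3 and highest in compE 2, and again washout 2 lay between the 2 libraries of each treated group. The means were 3.61 ± 5.92 CPM (SD, n = 3) in the washout, 14.9 ± 18.0 CPM (n = 2) with compE and 10.2 ± 11.7 CPM (n = 2) with Fc-JAG1. Other gene models, the antisense Gm15816 and Mir486 among them, share 6.36% of the span of Ank1.

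Of the 7 members with counts, the platelet genes reached 10 counts in the fewest libraries, 3 each. Pf4 had 0, 7742 and 0 counts in the washout, 1 and 3095 with compE, and 7162 and 0 with Fc-JAG1. It was therefore among the more highly counted members in washout 2, compE 2 and Fc-JAG1 1 and at 0 or 1 count elsewhere. The means were 71.5 ± 124 CPM (SD, n = 3), 40.0 ± 56.5 CPM (n = 2) and 98.3 ± 139 CPM (n = 2) for washout, compE and Fc-JAG1.

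Gp1bb had 0, 29 and 0 counts in the washout, 0 and 57 with compE, and 110 and 0 with Fc-JAG1. It was present in the same 3 libraries as Pf4, at far lower counts. Gp1bb shares 92.9% of its 2087 bases with Sept5 and Gm49601, which leaves 149 bases of its own, so its counts are a lower reading of its transcription.

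**Figure D1:**
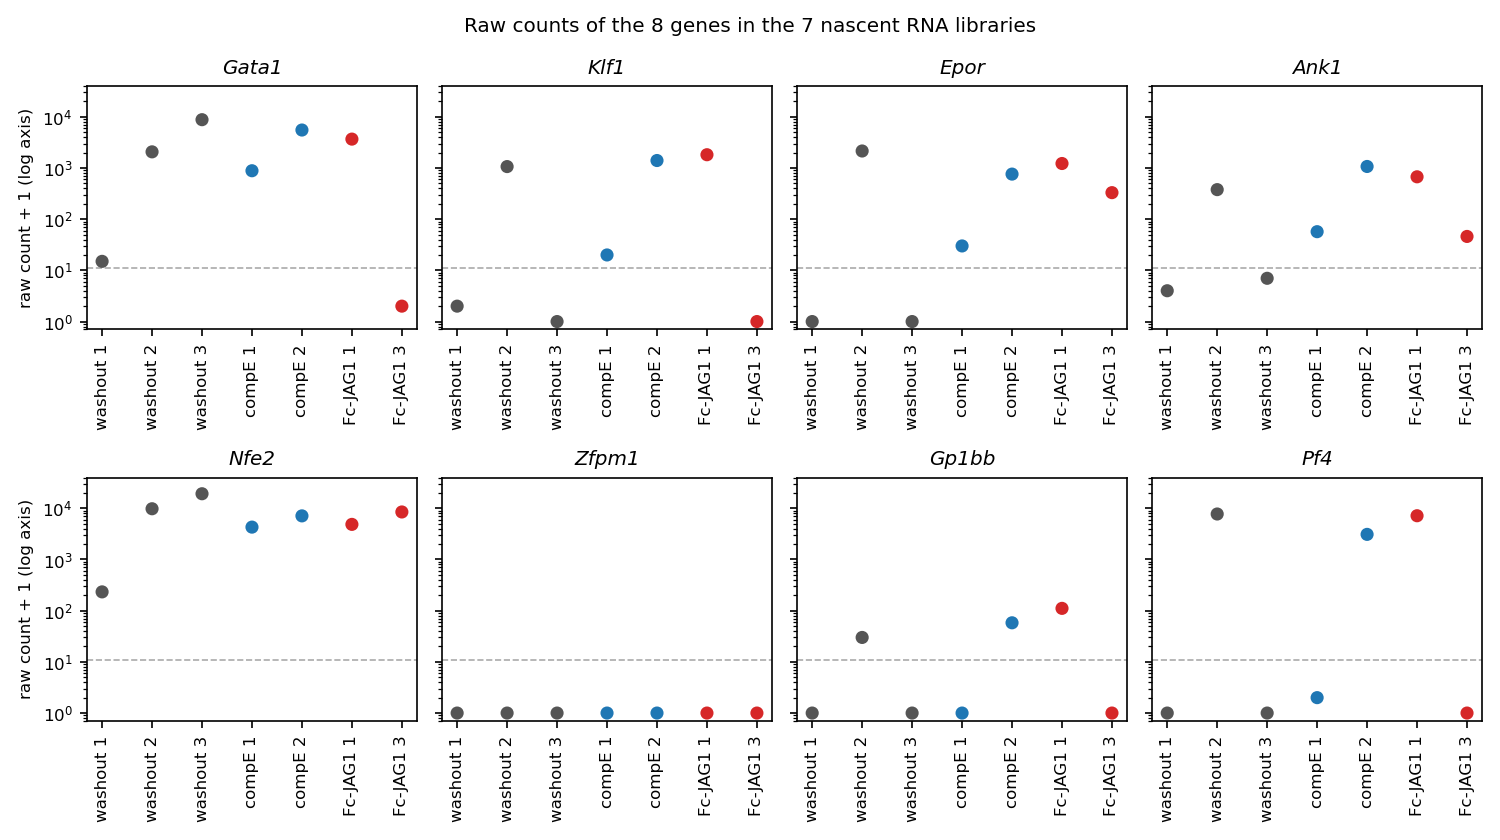
Raw counts of each of the 8 genes plus 1 (log axis) in the 7 libraries, where a point is a library and the color its condition; the dashed line marks 10 counts. Klf1, Gp1bb and Pf4 are above the line in washout 2, compE 2 and Fc-JAG1 1, from 29 counts (Gp1bb) to 7742 (Pf4), and in washout 1, washout 3 and Fc-JAG1 3 they have 0 or 1 count, while Nfe2 is above the line in every library.

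Per kb of span, averaged over libraries, Pf4 and Nfe2 had the highest levels and Ank1 the lowest of the 7 members with counts. The place of Pf4 comes from washout 2, compE 2 and Fc-JAG1 1, since it had 0 or 1 count in the other 4 libraries. The span includes introns, and exons make up 13527 of the 175654 bases of Ank1 and all 2087 of Gp1bb. The order per exonic base can differ and was not computed. Divided by the kilobases of the gene span and averaged over all 7 libraries, the level was 73.9 ± 102 CPM per kb (SD, n = 7) for Pf4, 25.5 ± 21.3 for Nfe2, 4.94 ± 6.34 for Klf1, 4.93 ± 5.85 for Gata1, 3.96 ± 4.78 for Epor, 0.362 ± 0.551 for Gp1bb and 0.0496 ± 0.0610 for Ank1. For each pair of neighbours in this order the difference was smaller than the SD of the higher gene. Over the 149 bases of its own, Gp1bb had 5.39 to 20.3 CPM per kb in the 3 libraries that read it, where Klf1 had 8.77 to 14.8 and Epor 4.25 to 12.9 CPM per kb. These lengths are unlike, since the bases of Gp1bb are all exon and the spans of Klf1 and Epor include introns. These are bulk samples, so fewer cells of a type and less RNA per cell cannot be told apart for any of these genes.

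Across libraries, 5 of the 7 members with counts were highest in the 3 libraries that captured the most genes. At least 10 counts were reached by 7 of the 8 genes in washout 2, compE 2 and Fc-JAG1 1, by 5 in compE 1, by 3 in Fc-JAG1 3 and by 2 in washout 1 and washout 3. For Klf1, Epor, Ank1, Gp1bb and Pf4 the lowest CPM in washout 2, compE 2 and Fc-JAG1 1 was above the highest in the other 4 libraries. This held for 5 of the 7 members with counts and for 1322 of the 16701 genes that had 10 counts in any library (7.92%), and these 3 libraries belong to 3 different conditions. Klf1 ran from 29.5 to 49.8 CPM in them and from 0 to 0.751 CPM in the rest, and Epor from 19.6 to 59.5 CPM against 0 to 13.9 CPM. Gata1 and Nfe2 did not share this order, since both were highest in washout 3. The part that the capture of a library had in these values was not tested.

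**Figure D2:**
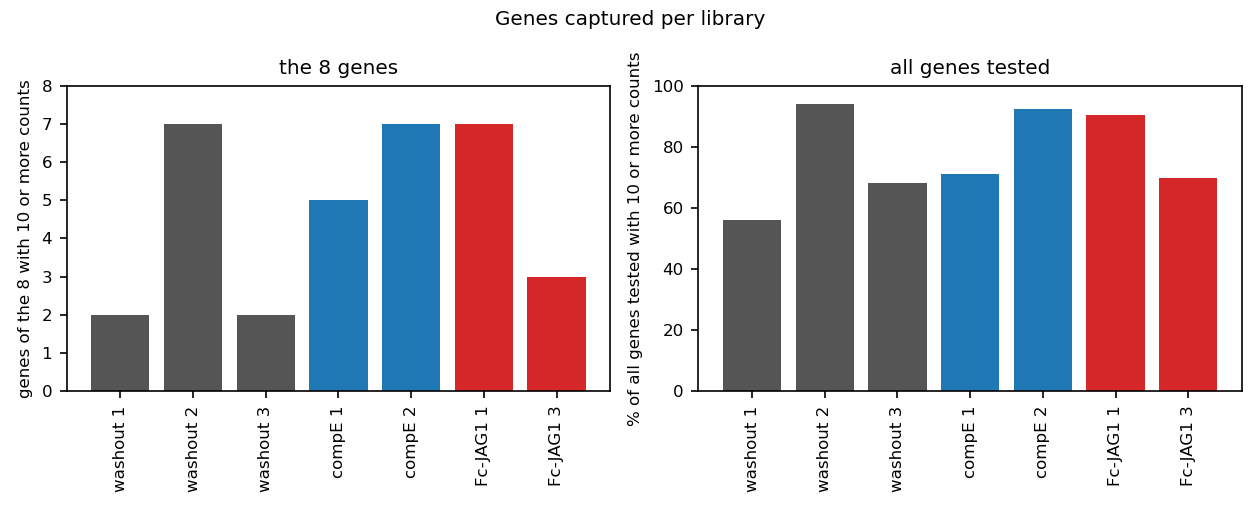
Left, how many of the 8 genes had 10 or more counts in each library; right, the percentage of the 10311 genes tested that did. Both panels are highest in washout 2, compE 2 and Fc-JAG1 1, with 7 of 8 genes and 90.5% to 94.2% of all genes, and lowest in washout 1, with 2 of 8 genes and 56.2%.

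Fc-JAG1 was compared with the washout to see what a Notch ligand given after release from the inhibitor changes in nascent RNA. Within biological sample 1, all 7 members with counts were higher in Fc-JAG1 1 than in washout 1, among them Gata1 (124-fold higher in CPM), Nfe2 (9.89-fold) and Pf4 (7162 counts against 0). In that pair 63.3% of all genes compared were higher. Within biological sample 3, Epor (329 counts against 0) and Ank1 (45 against 6) were higher in Fc-JAG1 3, Nfe2 was at 0.524 times its level in washout 3, Gata1 was at 1 count against 8789, and the other 4 genes were under 10 counts in both libraries. Here 49.7% of all genes compared were higher. Gata1 and Nfe2 thus moved in opposite ways in the 2 pairs, and Epor and Ank1 moved the same way in both. The share of all genes higher in both pairs was not computed, so this does not set Epor and Ank1 apart from other genes.

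No member passed the test. With edgeR's quasi-likelihood fit, which models the biological sample and the condition and adjusts p by Benjamini and Hochberg over all genes tested, 0 of the 5 members tested and 0 of all 10311 genes (0%) had an adjusted p under 0.05. At an unadjusted p under 0.05 there were 0 members and 526 genes, 401 of them higher with Fc-JAG1. EdgeR reports no standard error (SE), so the SE here is the absolute log2 fold change divided by the square root of F. The edgeR log2 fold change was 5.69 ± 3.35 (SE, adjusted p = 0.840) for Epor, 4.71 ± 2.94 (adjusted p = 0.844) for Ank1, 1.08 ± 4.24 (adjusted p = 1.00) for Gata1 and 0.28 ± 1.73 for Nfe2. For Klf1 it was 7.06 ± 4.18, from a gene with 10 counts in 1 library of each group, too few for a call under the rule used. The fitted fold changes of genes with libraries at 0 depend on small added counts and are not bounds. No member had its Fc-JAG1 and washout libraries fully apart, where 10.5% of the genes tested were higher without overlap and 6.85% lower, and an exact two-sided permutation test of 2 against 3 libraries cannot give a p below 0.2.

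The Wald test of DESeq2, which the study used, called Epor and Ank1 higher with Fc-JAG1, 2 of the 5 members tested, against 20.4% of the genes tested called in either direction, 15.7% higher and 4.74% lower. Its log2 fold change was 9.75 ± 2.54 (SE, adjusted p = 0.00179) for Epor and 4.28 ± 1.52 (adjusted p = 0.0281) for Ank1. DESeq2 gave adjusted p-values of 0.0937 for Klf1, 0.816 for Gata1 and 0.984 for Nfe2. The call of Epor was lost without washout 3 or Fc-JAG1 3, at log2 fold changes of 7.23 and 7.37, and was kept without each other library. Without Fc-JAG1 1 (adjusted p = 0.0301) it was kept only because the counts that a call needs were read over all 7 libraries, and the Fc-JAG1 arm is then 1 library whose spread is taken from the other groups. The call of Ank1 was lost without any of the 7, at log2 fold changes of 3.13 to 5.39. Both tests set a library against the others of its biological sample, and sample 2, with the highest Epor count, has no Fc-JAG1 library. Without the replicate block, the edgeR log2 fold change fell to 0.20 for Epor, 1.35 for Ank1 and 1.25 for Klf1, and edgeR called no member. DESeq2 without the block gave no adjusted p for these 3 genes and did not call Gata1 or Nfe2.

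**Figure D3:**
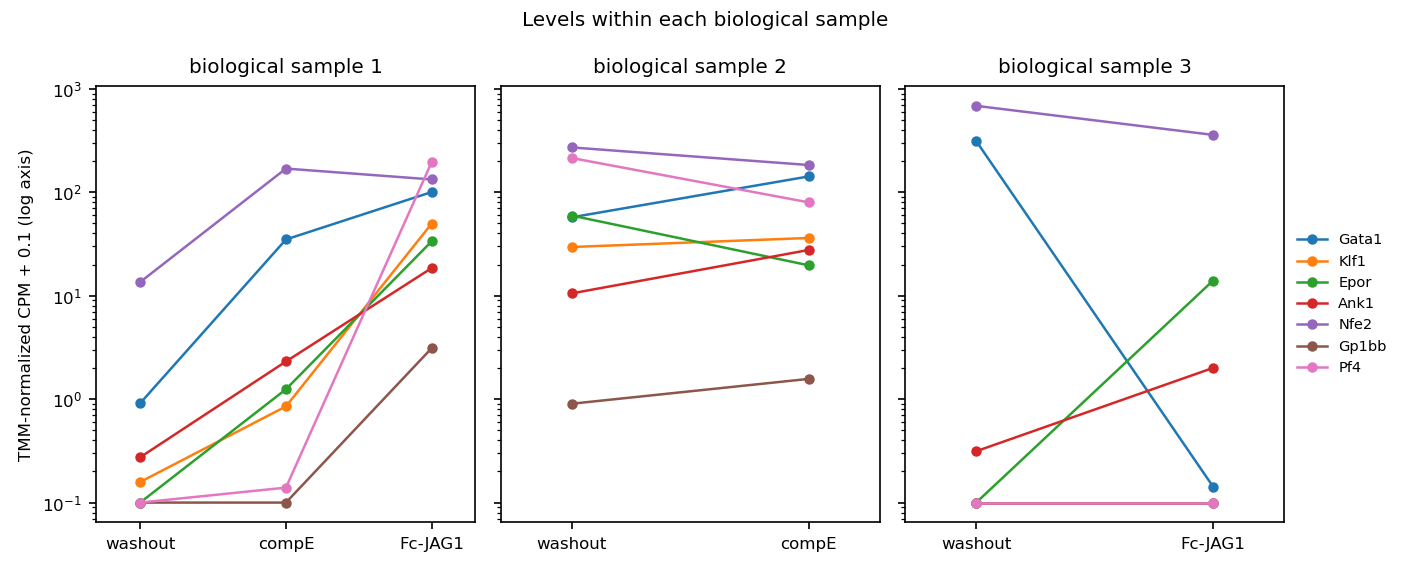
TMM-normalized CPM plus 0.1 (log axis) of the 7 members with counts, with 1 panel per biological sample; a line joins the libraries of a gene. All lines end higher with Fc-JAG1 than in the washout in sample 1, where Gata1 goes from 0.813 to 101 CPM, while in sample 3 Gata1 falls from 313 to 0.0424 CPM and Klf1, Gp1bb and Pf4 lie on each other at 0 CPM.

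The direction of Gata1 in this comparison rested on single libraries. Its edgeR log2 fold change was 1.08 over all libraries, 4.60 with Fc-JAG1 3 left out and 4.66 with washout 3 left out, but -3.72 with washout 1 left out, -12.71 when Fc-JAG1 1 was, and -1.22 to -1.18 when washout 2, compE 1 or compE 2 was. DESeq2 called Gata1 lower with Fc-JAG1 in 2 of these settings, at -7.44 without washout 1 (adjusted p = 0.0393) and -12.88 without Fc-JAG1 1 (adjusted p = 0.00271), where the Fc-JAG1 arm is 1 library with 1 count, assumed to vary like the other groups. Nfe2 moved between -0.93 and 1.77 in edgeR as each library was left out. Klf1 kept a positive edgeR value, up to 9.48, except without Fc-JAG1 1, where it was 0 because the remaining pair had no counts. Epor stayed between 4.83 and 12.28 and Ank1 between 3.13 and 5.19.

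**Figure D4:**
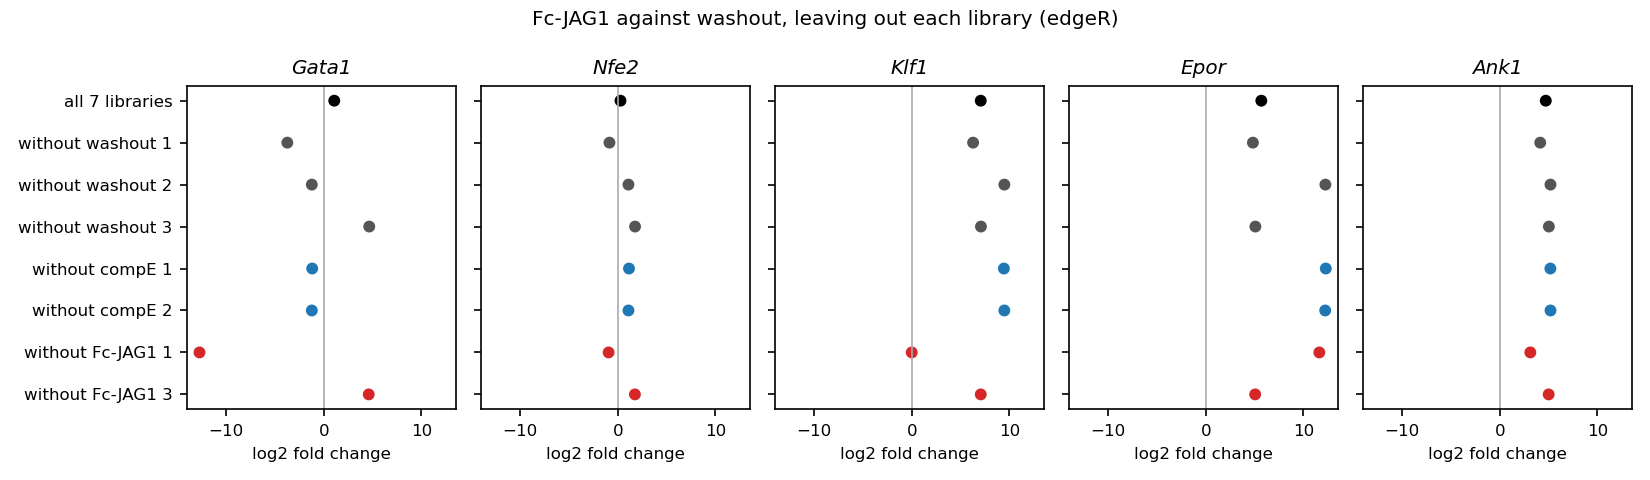
EdgeR log2 fold change of Fc-JAG1 against the washout for the 5 genes tested, over all 7 libraries (top) and with each library left out in turn; the vertical line marks no change. Gata1 lies on both sides of the line, from -12.71 to 4.66, while Epor (4.83 to 12.28) and Ank1 (3.13 to 5.19) stay to its right.

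Continued compE was compared with the washout, which shares the 3 washout libraries with the comparison above, to see what lasting inhibition changes. In biological sample 1, Gata1 (42.96-fold in CPM), Nfe2 (12.6-fold), Klf1 (19 counts against 1), Epor (29 against 0) and Ank1 (56 against 3) were all higher with compE, where 55.8% of all genes compared were. In biological sample 2, whose 2 libraries both captured many genes, Gata1 was 2.49-fold, Ank1 2.64-fold, Gp1bb 1.83-fold and Klf1 1.22-fold the washout level. In the same pair Epor was at 0.329, Pf4 at 0.372 and Nfe2 at 0.676 times the washout level, and 50.3% of all genes compared were higher. Gata1, Klf1 and Ank1 were thus higher with compE in both pairs, and Epor and Nfe2 went opposite ways. Here too the share of all genes higher in both pairs was not computed.

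None of these differences passed the test. EdgeR called 0 of 5 members and 0 of 10311 genes (0%), with 0 members and 271 genes at an unadjusted p under 0.05. The edgeR log2 fold changes were 1.57 ± 2.39 (SE) for Ank1, 0.83 ± 3.26 for Gata1, 0.64 ± 1.72 for Nfe2, 0.50 ± 2.97 for Klf1 and -0.85 ± 3.04 for Epor, each smaller than its SE. DESeq2 called 962 genes (9.33%, with 5.66% higher and 3.67% lower) and no member. No member had its compE and washout libraries fully apart, against 10.9% of genes higher and 6.79% lower.

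Fc-JAG1 and compE were compared directly, over 4 of the same libraries. In biological sample 1, the only one with both, Klf1 was 66.3-fold, Epor 29.3-fold, Ank1 8.33-fold and Gata1 2.88-fold higher in Fc-JAG1 1 than in compE 1, and Pf4 had 7162 counts against 1. Nfe2 was at 0.785 times its compE level, and 56.7% of all genes compared were higher in Fc-JAG1 1. EdgeR called 0 members and 0 genes (0%), with 0 members and 292 genes at an unadjusted p under 0.05. The log2 fold change was 6.53 ± 3.66 (SE) for Epor, with an unadjusted edgeR p of 0.0870, and 6.55 ± 4.02 for Klf1, 3.14 ± 2.84 for Ank1, 0.25 ± 3.48 for Gata1 and -0.35 ± 1.65 for Nfe2. DESeq2 called 1175 genes (11.4%, with 9.18% higher and 2.21% lower) and no member. No member had its libraries fully apart, against 15% of genes higher and 15.4% lower, and the exact permutation test of 2 against 2 libraries cannot go below 0.333.

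**Figure D5:**
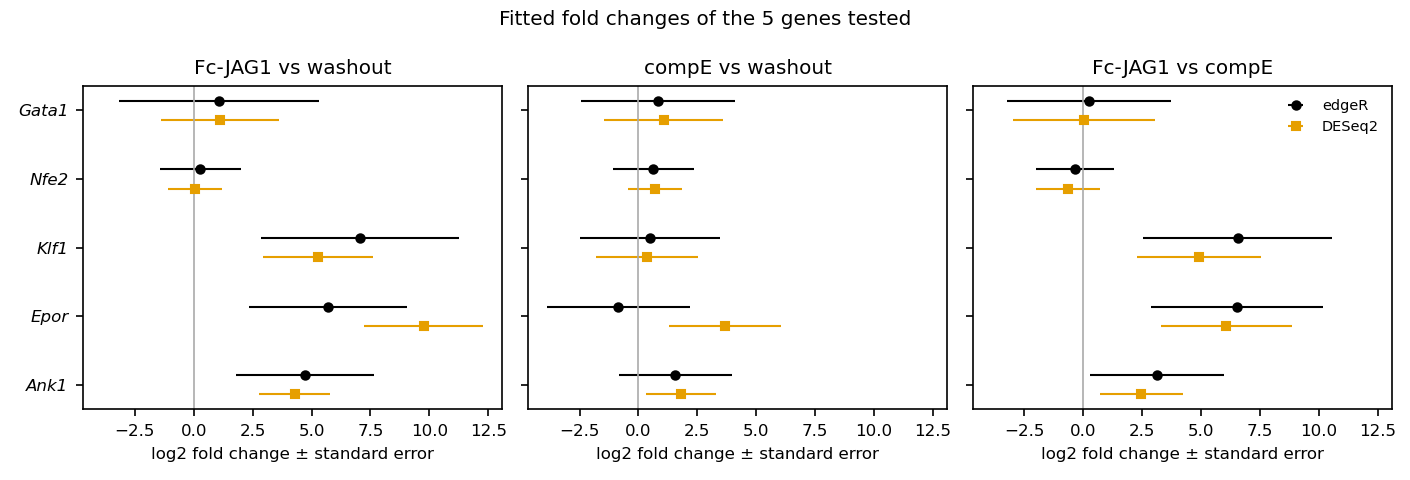
Log2 fold change ± standard error of the 5 genes tested in the 3 comparisons, from edgeR (black circles) and DESeq2 (orange squares). The edgeR error is the absolute log2 fold change divided by the square root of F. The vertical line marks no change. With Fc-JAG1 against the washout Epor is at 5.69 ± 3.35 in edgeR and 9.75 ± 2.54 in DESeq2, while Gata1 and Nfe2 lie close to 0 with errors that cross the line in all 3 panels.

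The other genes of these pathways were read the same way, and edgeR called none of any list in any comparison. Like Zfpm1, some listed genes lay wholly inside other genes and had 0 counts, which cannot be read as an absence of transcription. They were Cbfa2t3 and Lyl1 (GATA1 partners), Alas2 and Abcb10 (heme and iron), Piezo1 (membrane skeleton) and Icam4 (late erythroid). F2rl2 and P2ry12, of the alpha granule and megakaryocyte list, were such genes too. With Fc-JAG1 against the washout, DESeq2 called 0 higher and 1 lower of 14 tested GATA1 complex partners, and 0 higher and 1 lower of 12 subunits of NuRD, a repressor complex that FOG1 recruits. The lower NuRD subunit was Gatad2a, with 13533, 10389 and 27698 counts in the washout and 14538 and 3193 with Fc-JAG1. Of 9 tested KLF and SP factors, 4 were called higher and 2 lower, among them Klf16 (0, 1017 and 1 counts in the washout, 1070 and 73 with Fc-JAG1) and Klf7 (6530, 1483 and 7605 against 707 and 1). Of 6 relatives and partners of NFE2, Nfe2l1 alone was called, and lower, at 5663, 4729 and 11485 counts against 2827 and 1459. The background for these counts is the 15.7% of genes called higher and 4.74% called lower.

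The list for EPOR signalling also held the receptor genes Kit and Tfrc. Of its 18 tested genes, DESeq2 called 3 higher and 0 lower with Fc-JAG1. The background, as for the other lists of this comparison, was 15.7% of all genes called higher and 4.74% lower. The adaptor genes Gab1 (4, 44 and 0 counts in the washout, 1519 and 4087 with Fc-JAG1) and Shc1 (0, 2124 and 0 against 2645 and 1251) were among the 3 called higher. Of 13 membrane skeleton genes it called 1 higher, Rhag, an erythroid membrane protein gene with 1, 688 and 0 counts in the washout and 3282 and 5382 with Fc-JAG1. Both Fc-JAG1 libraries of Gab1 and of Rhag lay above all 3 washout libraries, which was not so for Ank1 or Epor. Of 13 heme and iron genes, 5 were called higher and 0 lower, with Cpox, an enzyme of heme synthesis, at 0, 4541 and 0 counts against 3406 and 10263. None of 11 tested globin and late erythroid genes was called in either direction. The summed level of all 17 genes of that list in the table, tested or not, ran from 273 to 814 CPM in the washout, from 414 to 770 with compE and from 92.7 to 395 with Fc-JAG1, where 2142 counts of Fc-JAG1 3 came from Hbb-y, an untested gene named after its values were seen. In edgeR, Rhag had a log2 fold change of 7.94 ± 3.45 (SE, adjusted p = 0.828).

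For the platelet lists, DESeq2 called 1 higher and 1 lower of 5 tested receptor genes and 2 higher and 0 lower of 14 alpha granule and megakaryocyte genes with Fc-JAG1, against 15.7% higher and 4.74% lower of all genes. Gp5, whose product sits in the same platelet receptor as GPIbβ, had 0, 830 and 0 counts in the washout, 0 and 592 with compE, and 4623 and 2017 with Fc-JAG1. Rgs18, a regulator of G protein signalling in platelets, had 0, 4174 and 0 counts, then 1 and 6181, then 6388 and 5967. Both were read in Fc-JAG1 3, where Gp1bb and Pf4 had 0 counts. With compE against the washout, DESeq2 called 3 of 13 heme and iron genes and 2 of 11 globin and late erythroid genes higher. It called at most 1 gene higher of any of the other 8 pathway lists and at most 1 lower of any pathway list. Of 6 tested macrophage markers it called 3 lower. The background is the 5.66% of all genes called higher and 3.67% called lower. The median edgeR log2 fold change with Fc-JAG1 was 2.56 over the heme and iron genes, 1.97 over the membrane skeleton genes, 0.14 over the GATA1 partners and -0.36 over the globin list, beside 0.44 over all genes tested.

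The genes whose pattern over the 7 libraries came closest to each tested member were found by the mean absolute difference of log2 CPM after each gene's mean was taken off. Rnaseh1 (0.42) and Snx9 (0.51) were closest to Gata1, where the median over all genes was 3.43, and Rnaseh1 had the same high value in washout 3 (8682 counts) and low value in Fc-JAG1 3 (0 counts). Mbip (0.23) and Ncbp1 (0.31) were closest to Klf1, Zfp362 (0.50) and Zfp777 (0.58) to Epor, Gm12251 (0.31) and Ccdc73 (0.32) to Ank1, and Safb (0.38) and Limk2 (0.39) to Nfe2. Among the members, Klf1 and Ank1 differed by 1.68, Epor and Ank1 by 1.66 and Klf1 and Epor by 1.92, with 2.80%, 4.38% and 4.56% of all genes closer to the first gene of each pair than the second was, and 5.97%, 5.65% and 7.42% closer to the second than the first was. Gata1 and Klf1 differed by 2.98, with 30.9% of genes closer to Gata1 and 20.1% closer to Klf1. Nfe2 and Klf1 differed by 3.77, with 85.5% of genes closer to Nfe2 and 48.2% closer to Klf1.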

How the data were processed

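In the study, cutadapt 4.2 trimmed the reads, STAR 2.7.8 placed them on GRCm38, and unique hits were kept. The authors deposited raw counts per gene from featureCounts (Subread 2.0.1), taken over whole genes, and did not state the strand setting. These raw counts, 1 column per library, were used here. The authors' tested table is the part of it that passes their filter of 10 counts in 2 replicates of a condition. Symbols came from GENCODE M21 (55227 of 55487 identifiers). The fit used edgeR 4.0.16 in R 4.3.3 (quasi-likelihood, TMM scaling, terms for biological sample and condition, all 7 libraries), with DESeq2 1.42.0 (Wald test) as an alternative. A call needed an adjusted p under 0.05 and 10 counts in 2 libraries of either group compared.

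The members and the lists of genes were chosen with earlier results of these data known. All 8 members are given, of each list the 2 genes with the smallest unadjusted p against the washout could be named, and for each tested member the 2 genes with a symbol nearest in pattern (log2 CPM with a prior count of 2). Listed genes wholly inside other genes are named for their position. Pairing by number comes from the study's methods and the titles of the samples. As a check, r between same-numbered libraries, each taken as its deviation from the group mean, ran from -0.0854 to 0.0915 (5 pairs). Between differently numbered libraries it ran from -0.0964 to 0.0964. The compE and Fc-JAG1 groups have 2 libraries each, whose deviations mirror each other, so each r has a counterpart of opposite sign. Same-numbered libraries showed no greater likeness by this measure. Alternatives were other scalings, filters and tests, no block and leaving out each library, and DESeq2 without the block or without each library was added after the data had been seen. Libraries of a condition come from different biological samples. Where the fit has a term for biological sample, p-values measure the spread left after sample and condition. Without the block they measure the spread between libraries of a condition.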

Additional observations from a re-analysis of the deposited data

How the results depend on the processing

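Over 15 log2 fold changes of the members, 242 values under the alternatives kept their direction and their side of the threshold, 8 became calls in the same direction and 65 changed direction, 3 of them (Gata1, DESeq2) as calls. None of the members was called in any edgeR setting. DESeq2 called 2 members (Epor and Ank1) and 2108 genes with Fc-JAG1 against the washout, 962 genes with compE against the washout and 1175 with Fc-JAG1 against compE, where edgeR called 0. Without the replicate block the counts of all genes called were 388, 325 and 190 in DESeq2 and 1 gene in edgeR, with Fc-JAG1 against the washout. Leaving out each library, with either test, gave 0 to 2 members and 0 to 2573 genes for Fc-JAG1 against the washout, 0 to 1704 genes for compE against the washout, and 0 to 1 member and 0 to 1469 genes for Fc-JAG1 against compE. The member called in this last comparison was Epor without washout 1 (7.05, higher with Fc-JAG1, DESeq2 adjusted p = 0.0487) and Gata1 without Fc-JAG1 1 (-16.02, lower, DESeq2 adjusted p = 0.00218), where the Fc-JAG1 arm is 1 library, of a sample with no compE library, assumed to vary like the other groups.

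With Fc-JAG1 against the washout and no replicate block, the log2 fold change turned to -1.28 in edgeR and -1.59 in DESeq2 for Gata1, and to -0.40 and -0.41 for Nfe2, which was also at -0.000607 in edgeR with DESeq2 scaling. With compE against the washout and no block it was -0.48 and -0.76 for Gata1 and -0.88 and -0.97 for Nfe2. With the block kept, Epor turned positive with compE against the washout, at 1.48 with a prior count of 2, 3.68 in DESeq2 and 0.49 with no filter. With Fc-JAG1 against compE and no block it was -0.80 and -0.83 for Gata1, -0.53 and -0.47 for Ank1, and 0.48 and 0.56 for Nfe2, and Gata1 was at -0.17 in edgeR with DESeq2 scaling. Leaving out each library, with either test, moved Gata1 from -12.88 to 4.97, Klf1 from 0 to 9.48 and Nfe2 from -1.01 to 1.77 (Fc-JAG1 against the washout). For compE against the washout the ranges were -3.70 to 3.15 for Gata1, -1.27 to 3.43 for Klf1, -1.66 to 7.37 for Epor and -0.62 to 2.20 for Nfe2. For Fc-JAG1 against compE they were -16.02 to 2.06 for Gata1, -1.44 to 9.15 for Klf1 and -2.37 to 1.74 for Nfe2. The causes were not tested. The median of all genes with Fc-JAG1 moved from 0.44 with TMM to 0.07 with DESeq2 scaling and 0.71 with total counts, a shift that every member shares. The common dispersion was 2.42. Leaving Zfpm1 and Gp1bb aside, a library in which a member has 0 counts allows up to 0.107 to 0.174 CPM of it, depending on the library. This limit covers counting error only. For Gp1bb it would bound only the 149 bases that no other gene shares.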
